A study of Mus musculus with 36 samples.

Results

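The 42 genes described here encode enzymes that break down amino acids in the liver, and their RNA was followed in fed, fasted and CL316243-treated mice of 2 genotypes. Each gene was found by its symbol among the gene names of the array's non-control probes, and the probe with the highest mean log2 signal over the 36 arrays stood for the gene. All 42 of 42 listed symbols were found, out of 37074 gene names on the array, and all 42 were among the 24102 genes that passed the filter on dim probes. They passed it with signal well above background on all 36 arrays, so none entered the test through 1 group alone.

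The study profiled 36 liver samples, 1 per array, from C57Bl/6J males killed at Zeitgeber time 16. In AAKO mice white adipose tissue is without ATGL, the product of Pnpla2 that starts triglyceride breakdown, and CTRL mice serve as controls. The promoter or Cre line behind the deletion was not given in the sources used here. Each genotype was studied in 3 conditions, with 6 samples in each of the 6 groups. The labels number these samples but do not say that each came from its own mouse, so p-values measure the spread between samples, which may be partly technical. Fed mice ate freely. Fasted mice went without food for 24 h. CL316243 mice were fed and received 3 mg/kg of CL316243, a beta 3 adrenergic agonist that stimulates fat breakdown in adipocytes, by gavage at Zeitgeber time 10 in carboxymethyl cellulose. The labels place the fed groups in experiment 2 and the fasted and CL316243 groups in experiment 1, and in any difference from fed mice the experiment therefore cannot be told apart from the condition. A gavage is given for the CL316243 groups only, so the agent cannot be told apart from the gavage and its vehicle.

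Levels are given as log2 signal after subtraction of each array's 75th percentile (0 marks that percentile), and differences between groups are log2 fold changes. A gene was called where limma gave a Benjamini-Hochberg adjusted p under 0.05 over all 24102 genes. Levels of different genes were not compared, because probes differ in brightness. Between 33130 and 37200 of 56605 probes were well above background on each array. The CTRL fasted replicate 2 array stood apart from its group on the first principal component, which held 41.8% of the variance. Its score was 80.9, against 16.7 to 28.8 for the other CTRL fasted arrays and 102 to 110 for the AAKO fasted arrays, so the counts of enzymes called in comparisons that use CTRL fasted livers are given with and without it. The 7 hepatocyte markers with a probe were detected on every array, and their summed level had group medians from 12.04 to 12.32. The summed level of the 4 neutrophil markers ranged from 2.42 to 6.32 in fasted AAKO livers and from -1.80 to 5.65 in fasted CTRL livers. After CL316243 it ranged from 0.79 to 2.77 in AAKO and from -2.08 to 1.71 in CTRL livers. The sum of 6 stellate cell markers was also higher in fasted AAKO livers, at 6.24 to 6.67 against 5.88 to 6.20 in fasted CTRL livers. Singly, 4 of the 6 were higher and 2 lower, and 3 were called, all higher. After CL316243 the stellate sum was lower than in fed livers in CTRL mice (4.91 to 5.40 against 5.44 to 5.90), with 5 markers lower and 1 higher. The sum of 5 endothelial markers was lower in CTRL (4.00 to 4.90 against 4.95 to 5.53) and in AAKO livers (4.58 to 5.15 against 5.23 to 5.51). All 5 were lower in both genotypes, with 4 called in CTRL and 2 in AAKO. All 6 Kupffer cell markers were lower as well, with 3 called in CTRL and 4 in AAKO. Pancreatic acinar markers, of which 2 or 3 of 5 were detected on each array after CL316243, summed to 2.32 to 2.93 in AAKO and 1.84 to 2.10 in CTRL livers. In fasted livers that sum ran from 2.50 to 3.03 in AAKO and from 1.90 to 2.77 in CTRL. The 2 acinar markers tested were both called in fasted AAKO against CTRL livers, in opposite directions, at 2.01 and -0.60. Erythroid markers summed to 3.25 to 3.71 in fasted AAKO livers and to 4.25 to 5.03 in fed AAKO livers. In CTRL livers that sum was also lower in fasted mice, at 3.65 to 4.19 against 4.25 to 4.76 in fed mice. The part of these cells in the results below was not tested. In whole liver, fewer cells of a type and less RNA per cell cannot be told apart.

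The liver removes the amino group of most amino acids by transamination or deamination and sends the carbon skeletons to the citric acid cycle, to glucose or to ketone bodies. During a fast the nitrogen leaves as urea, and alanine, serine and other glucogenic amino acids become substrates of gluconeogenesis. Tat, Sds and Tdo2 are classical liver genes under the control of glucocorticoids, glucagon and feeding. Branched-chain amino acids are an exception, since their first transamination takes place mostly outside hepatocytes.

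The array reads these genes through short probes. A probe of Sds and a probe of Got1 are shown because these genes had the highest genotype differences in fasted mice. The Sds probe, which was the one used for its level, lies at chr5:120933105-120933164 on the plus strand in mm9. The Got1 probe lies at chr19:43579114-43579173 on the minus strand in mm9 and is 1 of 3 for this gene. It was not the one used for the level of Got1. The probe annotation in the files does not say whether these positions are coding or untranslated.
Sds: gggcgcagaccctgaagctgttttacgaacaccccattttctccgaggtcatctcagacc
Got1: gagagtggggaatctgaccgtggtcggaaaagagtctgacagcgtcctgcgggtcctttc

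The 250 bases before the listed start of 3 genes are shown next, because Got1 and Aass rose and Amt fell in fasted AAKO livers. They come from the RefSeq promoter table of GRCm38.p6 and read 5′ to 3′ on the gene's strand, at chr19:43524606-43524855 (minus) for Got1, chr6:23132987-23133236 (minus) for Aass and chr9:108296655-108296904 (plus) for Amt. Capitals mark matches, on either strand, to 5 motifs searched for. These were the CRE core TGACG, the C/EBP motif TTGCNNAA, the FoxO motif TGTTTAC, the ATF4 motif TGATGNAAT and the nuclear receptor motif AGGTCA.
Got1: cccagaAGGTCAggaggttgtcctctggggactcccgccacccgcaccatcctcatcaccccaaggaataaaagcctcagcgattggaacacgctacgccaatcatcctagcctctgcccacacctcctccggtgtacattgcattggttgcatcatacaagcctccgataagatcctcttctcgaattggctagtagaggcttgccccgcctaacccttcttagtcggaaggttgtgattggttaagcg
Aass: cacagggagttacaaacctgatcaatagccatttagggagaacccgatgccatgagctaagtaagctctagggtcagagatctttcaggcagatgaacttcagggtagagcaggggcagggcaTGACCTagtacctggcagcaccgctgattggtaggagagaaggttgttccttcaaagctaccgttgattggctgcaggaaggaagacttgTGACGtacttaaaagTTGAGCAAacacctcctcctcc
Amt: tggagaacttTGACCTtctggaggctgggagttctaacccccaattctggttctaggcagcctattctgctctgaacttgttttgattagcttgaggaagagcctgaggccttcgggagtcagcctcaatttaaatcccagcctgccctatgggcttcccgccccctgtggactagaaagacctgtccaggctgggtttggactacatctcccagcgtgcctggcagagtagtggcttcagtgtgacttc

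The Aass window held 3 of the motifs, with the CRE core at position -37, the C/EBP motif at -22 and the nuclear receptor motif at -127, counted from the listed start. The windows of Got1 and Amt held the nuclear receptor motif alone, at -244 and -240. Tat had no match to any of the motifs in its window, which is not shown. Promoters of 35 of the 42 genes were in the table. Some genes have several listed starts, and the counts that follow use the first for the 35 and for all other genes. AGGTCA was present in 11 of the 35 (31.4%), beside 13.8% of all 27025 promoters of the table. The other motifs were present in 3 (8.57%, beside 17.9% of all promoters) for TGACG, 5 (14.3%, beside 9.55%) for TTGCNNAA, 1 (2.86%, beside 3.09%) for TGTTTAC and 0 (beside 0.825%) for TGATGNAAT. A match is a description of the letters and does not show that a factor binds there.

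The first comparison asks how livers of fasted AAKO mice differ from those of fasted CTRL mice. Both serine dehydratases, the lysine enzyme Aass, 2 of 4 tyrosine enzymes and the aminotransferases Got1, Gpt2 and Agxt were higher in the AAKO livers. The glycine cleavage genes Amt and Gldc, 3 of 4 histidine enzymes, all 3 genes of the propionyl-CoA route and 5 of 6 of the lower branched-chain pathway were lower. Of the 42 enzymes 31 were called, 13 higher and 18 lower in AAKO, while 49.3% of all genes tested were called in this comparison (21.4% higher, 27.9% lower). The groups did not overlap for 21 of the 42, beside 21.3% of all genes. The median difference of the 42 was -0.01, beside -0.04 for all genes. A called difference of at least 1.5-fold was found for 14 enzymes, beside 25.4% of all genes. Without CTRL fasted replicate 2 the call count was again 13 higher and 18 lower, beside 51.7% of all genes. Then 23 had groups that did not overlap and 17 a called difference of at least 1.5-fold, beside 33.4% and 29.0% of all genes.

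**Figure D1:**
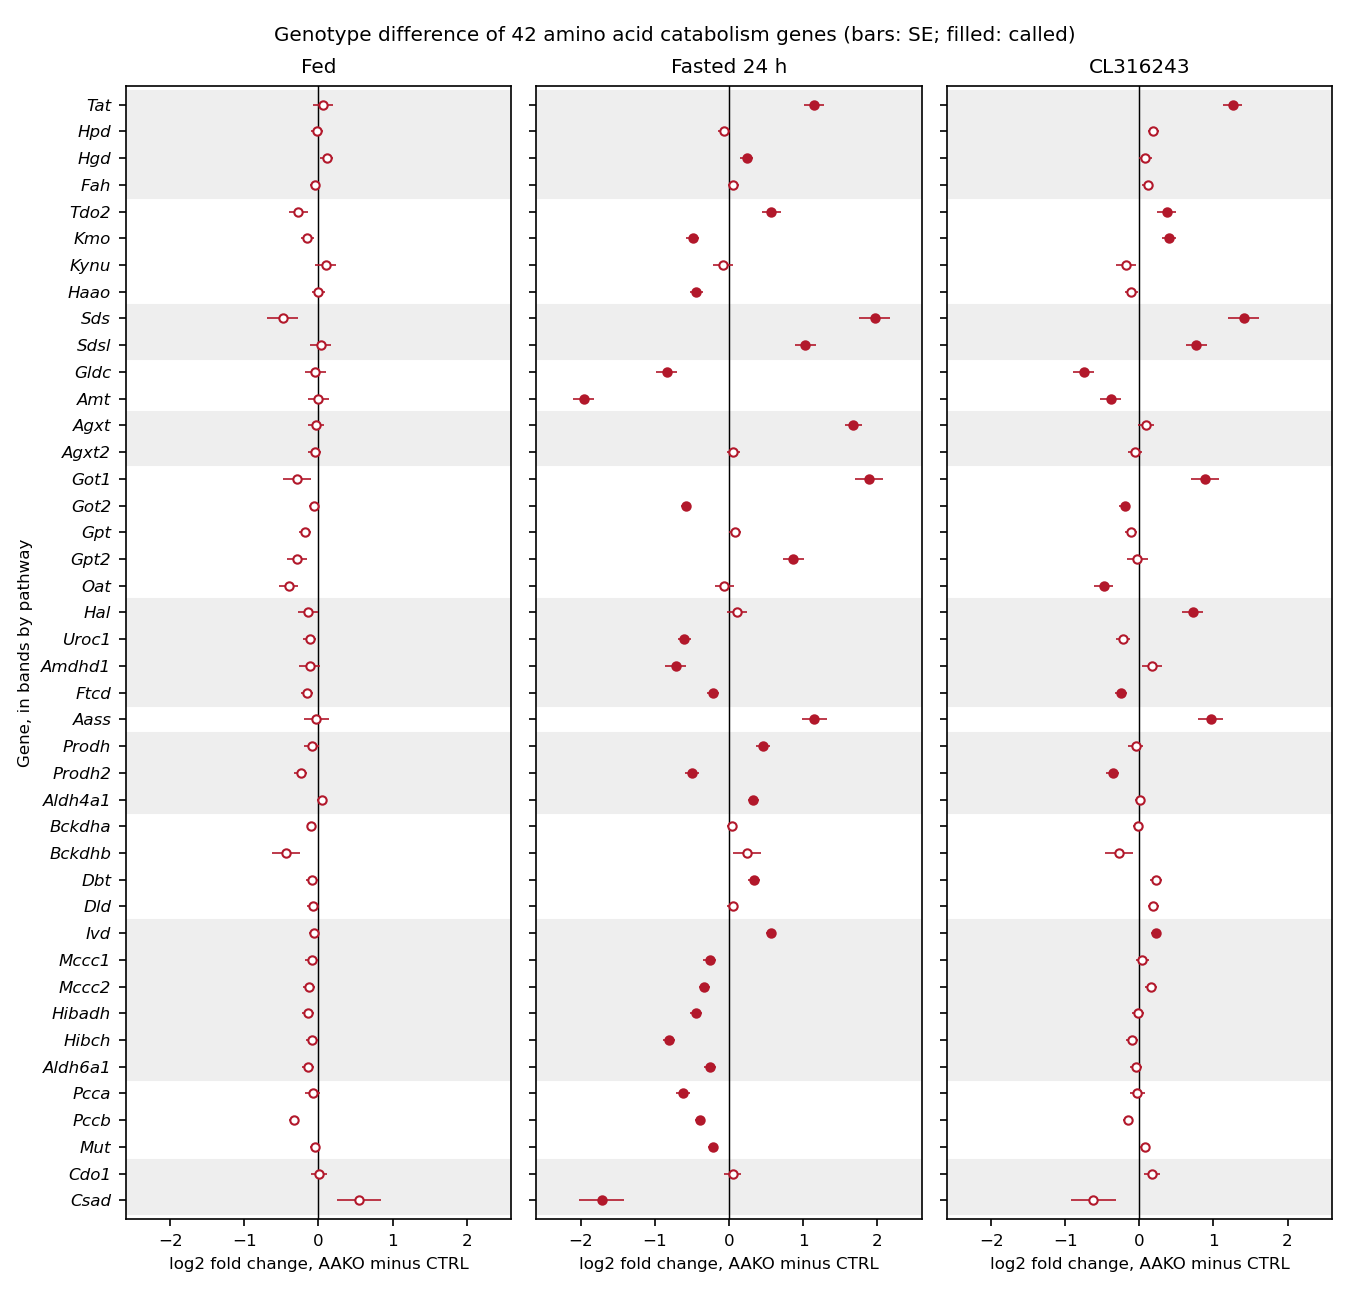
Each point is the log2 fold change of 1 enzyme in AAKO against CTRL livers (x axis), with its standard error, in fed, fasted and CL316243 mice (panels from left to right). The genes are in bands by pathway, filled points were called, and 0, 31 and 15 of the 42 points are filled in the 3 panels.

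Sds, which turns serine into pyruvate and ammonia, had the highest difference. Its level was 3.68 in the lowest, 4.85 in the median and 5.37 in the highest fasted CTRL array, and 6.16, 6.73 and 7.04 in fasted AAKO arrays. The fasted groups did not overlap, and every fasted AAKO array was also above all arrays of the other 5 groups. The difference was 1.97 ± 0.21 (SE, n = 6 per group), or 3.91-fold, with an adjusted p of 4.41e-09. Sdsl, the serine dehydratase-like gene next to Sds on chromosome 5, was read at chr5:120908225-120908284 (minus, mm9). Its level ran from 4.41 to 5.33 (median 4.79) in fasted CTRL and from 5.46 to 6.17 (median 6.03) in fasted AAKO livers. These groups did not overlap either, and the difference was 1.03 ± 0.14 (adjusted p = 2.12e-07). Second probes of Sds and Sdsl gave 2.20 and 0.89 for the same difference.

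Among the aminotransferases that move nitrogen between the common amino acids, Got1 and Gpt2 rose and Got2 fell. Got1, the cytosolic aspartate aminotransferase, was read at chr19:43574278-43574337 (minus, mm9). It ran from 6.97 to 8.38 (median 7.37) in fasted CTRL and from 9.25 to 9.48 (median 9.37) in fasted AAKO livers. The highest CTRL value belonged to replicate 2, and the next highest was 7.50. The difference was 1.89 ± 0.19 (3.70-fold, adjusted p = 9.70e-10), and the 2 other Got1 probes gave 2.72 and 2.73. Got2, the mitochondrial aspartate aminotransferase, differed by -0.58 ± 0.07 (adjusted p = 1.87e-08), with no overlap of the groups. Gpt2, the mitochondrial alanine aminotransferase, rose by 0.87 ± 0.14 (adjusted p = 6.29e-06). Gpt, the cytosolic alanine enzyme, was not called, with a difference of 0.08 and a 95% interval from -0.08 to 0.24. Oat, which takes the amino group from ornithine, was not called either (-0.06, interval -0.31 to 0.20).

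Agxt, which transfers the amino group of alanine to glyoxylate, had the lowest adjusted p of the 42. It ran from 6.35 to 7.01 in fasted CTRL and from 8.05 to 8.56 in fasted AAKO livers. The difference was 1.68 ± 0.11 (3.21-fold, adjusted p = 3.73e-13). Agxt2, a mitochondrial aminotransferase of the same reaction, differed by 0.06 and was not called (interval -0.11 to 0.24).

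Among the 42, Tat, Tdo2 and Aass, at the start of tyrosine, tryptophan and lysine breakdown, were higher in fasted AAKO livers. Of the 6 later tyrosine and tryptophan enzymes 1, Hgd, was higher. Tat, which starts tyrosine breakdown, was read at chr8:112523207-112523266 (plus, mm9). It ran from 7.37 to 8.50 (median 7.72) in fasted CTRL and from 8.84 to 9.10 (median 8.96) in fasted AAKO livers. The groups did not overlap, and the spread was far wider in CTRL (SD 0.45) than in AAKO (SD 0.11). The difference was 1.15 ± 0.13 (2.21-fold, adjusted p = 1.46e-08). Hpd and Fah, which act later on the tyrosine ring, differed by -0.07 and 0.06 and were not called. Tdo2, which opens the ring of tryptophan, rose by 0.57 ± 0.13 (adjusted p = 5.28e-04). Kmo and Haao, further along the kynurenine route, fell by 0.49 and 0.44, and Kynu was not called (-0.08, interval -0.37 to 0.21). Haao, which makes the precursor of quinolinic acid, was read at chr17:84230696-84230755 (minus, mm9). It ran from 5.20 to 5.89 (median 5.79) in fasted CTRL and from 5.05 to 5.43 (median 5.22) in fasted AAKO livers, and the groups overlapped through CTRL replicate 2 at 5.20. A second Haao probe gave 0.23, so the direction depends on the probe. Aass, which carries out the first steps of lysine breakdown, was read at chr6:23022668-23022727 (minus, mm9). It ran from 7.23 to 8.93 (median 8.10) in fasted CTRL and from 9.12 to 9.35 (median 9.22) in fasted AAKO livers. Its groups did not overlap, and the difference was 1.15 ± 0.17 (2.22-fold, adjusted p = 1.44e-06).

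Amt and Gldc, of the glycine cleavage system, fell with the probes used. Amt, its aminomethyltransferase, was read at chr9:108204176-108204235 (plus, mm9) and had the lowest difference of all 42. Its level ran from -0.47 to 0.79 (median 0.55) in fasted CTRL and from -1.85 to -1.30 (median -1.58) in fasted AAKO livers. The fasted AAKO arrays were the 6 lowest of the whole series. The difference was -1.96 ± 0.14, a 3.89-fold lower level (adjusted p = 1.44e-12), and a second probe gave -2.15. Gldc, the glycine decarboxylase, was read at chr19:30172983-30173042 (minus, mm9). It ran from 4.96 to 5.63 (median 5.33) in fasted CTRL and from 4.08 to 4.66 (median 4.59) in fasted AAKO livers. The difference was -0.84 ± 0.14 (adjusted p = 1.04e-05), but a second Gldc probe, at chr19:30189481-30189540, gave 0.72.

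Csad, which makes hypotaurine from cysteine sulfinate, was read at chr15:102007569-102007628 (minus, mm9) and was the most variable of the genes shown. It ran from 4.13 to 5.09 (median 4.74) in fasted CTRL and from 2.02 to 3.86 (median 3.09) in fasted AAKO livers. The groups did not overlap despite this spread, and the difference was -1.72 ± 0.30 (3.30-fold lower, adjusted p = 1.23e-05). Cdo1, the cysteine dioxygenase upstream of it, differed by 0.05 (interval -0.17 to 0.27) and was not called.

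**Figure D2:**
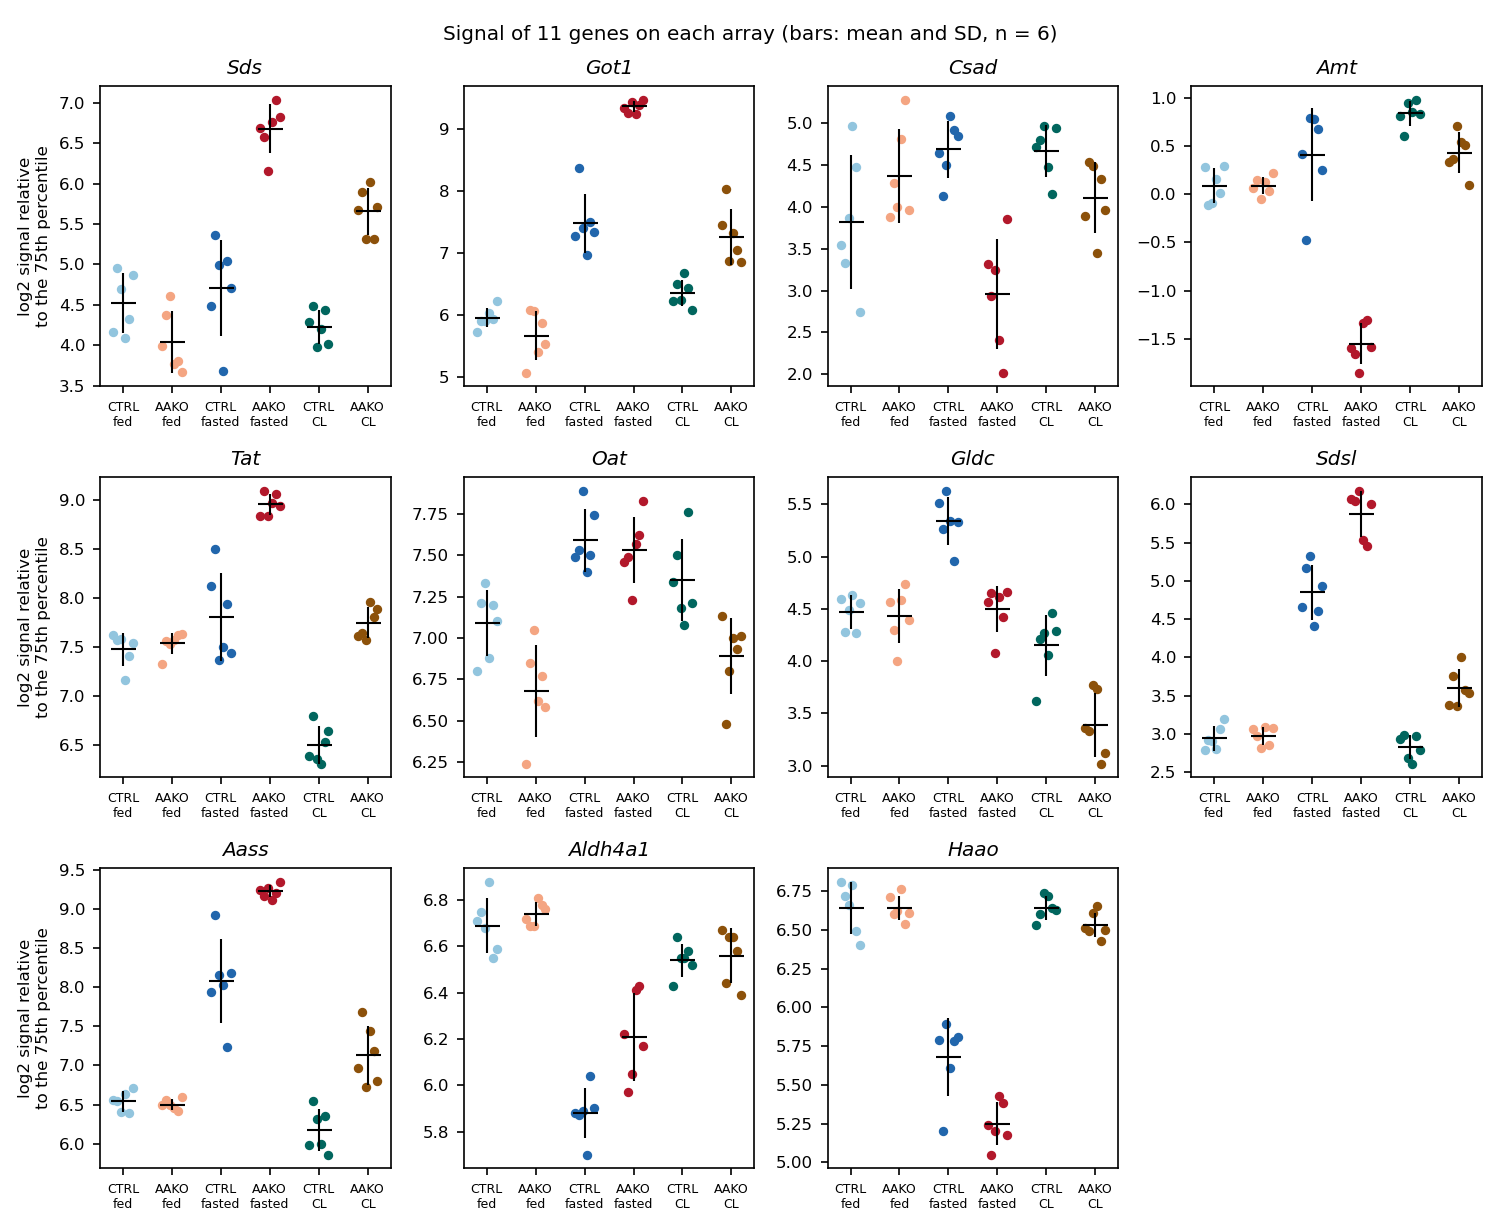
Points are single arrays, as log2 signal minus the array's 75th percentile (y axis), for 11 enzymes in the 6 groups (x axis), with the mean and SD of 6 arrays. Sds, Got1, Tat, Sdsl and Aass are highest and Amt lowest in the fasted AAKO arrays.

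In histidine breakdown, Uroc1 and Amdhd1, the middle steps, fell by 0.60 and 0.72, while Hal, the first step, was not called at 0.11 (interval -0.18 to 0.40). Ftcd, the last step, was called at -0.21, a call that was lost without CTRL fasted replicate 1 or 3 or AAKO fasted replicate 2 (adjusted p = 0.0635 to 0.0849). A second Hal probe gave -0.56. In proline breakdown, Prodh rose by 0.46 ± 0.10 and Aldh4a1, which oxidises the product of the first step, by 0.33 ± 0.07. Aldh4a1 was read at chr4:139205546-139205605 (plus, mm9), and its level ran from 5.70 to 6.04 (median 5.88) in fasted CTRL and from 5.97 to 6.43 (median 6.20) in fasted AAKO livers. The Aldh4a1 groups overlapped slightly. Prodh2, which acts on hydroxyproline, fell by 0.50.

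Of the 4 subunits of the branched-chain ketoacid dehydrogenase, 1 was called: Dbt rose by 0.34 ± 0.08, and Bckdha, Bckdhb and Dld had differences of 0.04, 0.24 and 0.05. All 6 enzymes of the lower branched-chain pathway were called, 1 higher and 5 lower. Hibch, in valine breakdown, fell by 0.81 ± 0.08 (adjusted p = 5.00e-10) and ran from 3.22 to 3.42 in fasted AAKO against 3.93 to 4.26 in fasted CTRL livers. Hibadh and Aldh6a1, which follow Hibch, fell by 0.45 and 0.25. Ivd, in leucine breakdown, was the one that rose, by 0.57 ± 0.07 (adjusted p = 5.96e-08). Its other 2 probes gave 0.29 and -0.50. Mccc2 fell by 0.33, and Mccc1 was called at -0.26. With the mean over its 3 probes Mccc1 turned to 0.61 (adjusted p = 2.34e-06). The Mccc1 call was lost without CTRL fasted replicate 1 or 3 or AAKO fasted replicate 2 or 3 (adjusted p = 0.0564 to 0.0665). All 3 genes of the propionyl-CoA route fell, Pcca by 0.62, Pccb by 0.39 and Mut by 0.22. Hgd, in tyrosine breakdown, was called at 0.24, and its call was lost without CTRL fasted replicate 1, 5 or 6 or AAKO fasted replicate 1 or 6 (adjusted p = 0.0531 to 0.0990).

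For several enzymes the probes of 1 gene disagreed in sign. The 42 genes had 80 probes, 28 genes had several, and 27 had at least 2 that passed the filter. For fasted AAKO against CTRL livers, the probe used and another probe had opposite signs for Hgd (0.24 and -0.88), Mccc1 (-0.26, against 1.29 and 0.79), Mccc2 (-0.33, against 0.60, with -0.53 for its remaining probe) and Kynu (-0.08, against 0.37, with -1.96 for its remaining probe). The same held for Gldc, Haao, Hal and Ivd, given above, and for Gpt, where both values were near 0. The Mccc2 probe with the opposite sign was well above background on 14 of 36 arrays, and the Kynu probe at -1.96 on 20. For Got1, Sds, Sdsl, Aass, Amt, Csad, Hibch and Pcca every tested probe had the same sign. Which transcripts each probe reads was not tested.

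**Figure D3:**
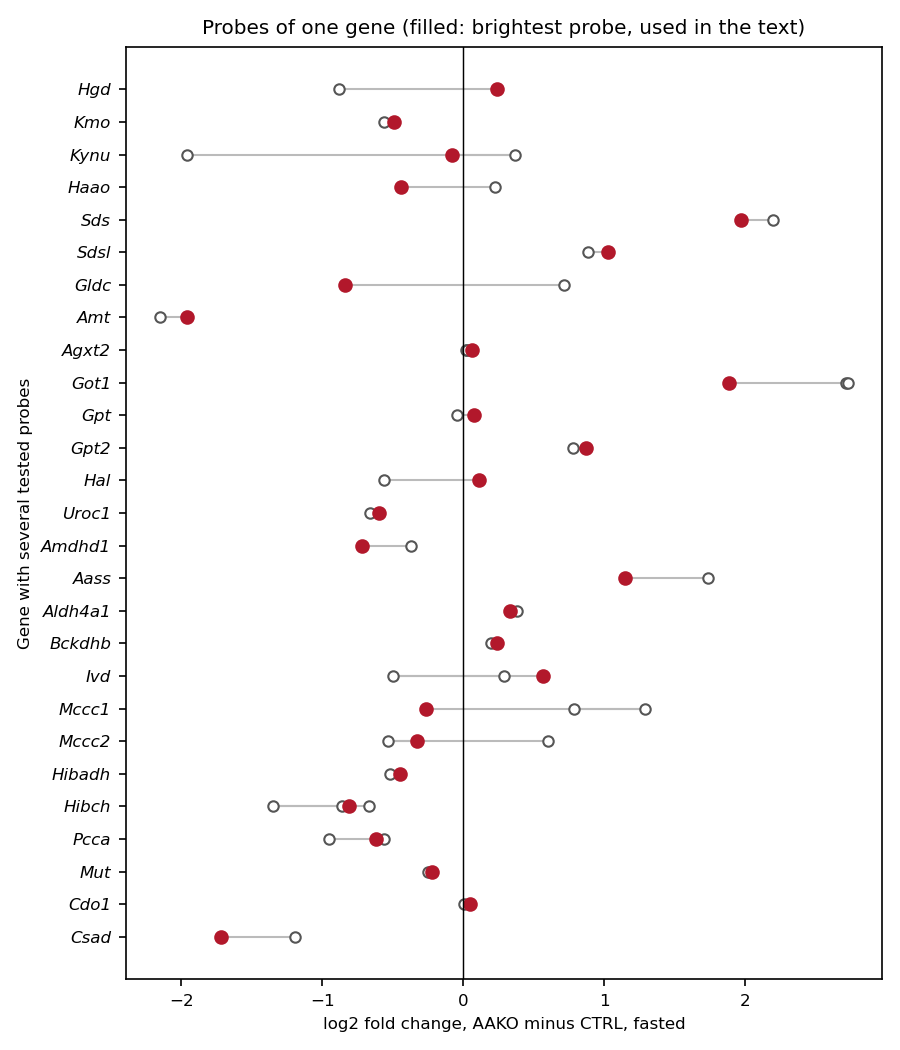
Each point is the log2 fold change of 1 tested probe in fasted AAKO against fasted CTRL livers (x axis) for the 27 enzymes with several tested probes (y axis). Filled points are the brightest probe of each gene, and the lines join probes of 1 gene; Mccc1, Gldc and Hgd have probes on both sides of 0.

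After CL316243 the genotypes differed in fewer of these enzymes. Of the 42, 15 were called, 9 higher and 6 lower in AAKO, beside 24.7% of all genes (13.2% higher, 11.4% lower), and 9 had groups that did not overlap, beside 11.4%. Of all calls 42.3% were higher with the authors' table, against 53.6% here. The median was 0.00, beside 0.03 for all genes. Sds, Tat, Aass, Got1, Sdsl and Hal were each at least 1.5-fold higher, and Gldc was at least 1.5-fold lower.

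Sds ran from 3.98 to 4.48 (median 4.24) in CTRL and from 5.31 to 6.02 (median 5.70) in AAKO livers after CL316243. The groups were apart, with a difference of 1.41 ± 0.21 (2.66-fold, adjusted p = 8.64e-06). Tat ran from 6.31 to 6.80 (median 6.46) in CTRL and from 7.57 to 7.96 (median 7.73) in AAKO livers. That difference, 1.26 ± 0.13 (2.39-fold, adjusted p = 2.38e-08), went with low CTRL values, and the AAKO livers lay near both fed groups. Aass ran from 5.86 to 6.55 (median 6.15) in CTRL and from 6.72 to 7.69 (median 7.08) in AAKO livers, a difference of 0.96 ± 0.17. Got1 ran from 6.09 to 6.68 (median 6.35) and from 6.85 to 8.04 (median 7.18), a difference of 0.88 ± 0.19. Sdsl ran from 2.61 to 2.98 (median 2.86) and from 3.37 to 4.01 (median 3.55), a difference of 0.77 ± 0.14. For all 5 genes the highest CTRL array was below the lowest AAKO array. Hal, the first enzyme of histidine breakdown, rose by 0.72 ± 0.14 (adjusted p = 3.22e-04), and its second probe gave 0.66.

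Among the lower levels, Gldc ran from 3.62 to 4.46 (median 4.24) in CTRL and from 3.02 to 3.77 (median 3.34) in AAKO livers, with a difference of -0.75 ± 0.14 (adjusted p = 1.90e-04) and an overlap of the groups. Its second probe gave -0.05. Oat, read at chr7:139749183-139749242 (minus, mm9), ran from 7.08 to 7.76 (median 7.28) in CTRL and from 6.48 to 7.13 (median 6.96) in AAKO livers. The Oat groups overlapped, with a difference of -0.48 ± 0.13 (adjusted p = 5.01e-03). Agxt and Gpt2, both higher in fasted AAKO livers, differed by 0.09 (interval -0.15 to 0.32) and -0.03 (interval -0.32 to 0.26) after CL316243 and were not called. Kmo rose by 0.40 ± 0.09, and Ivd by 0.22 ± 0.07. Prodh2 fell by 0.36 and Ftcd by 0.25.

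The other 3 calls after CL316243 depended on single arrays. Amt was called at -0.39, with no call without CTRL CL316243 replicate 3, 4, 5 or 6 or AAKO CL316243 replicate 1, 2, 4 or 6 (adjusted p = 0.0514 to 0.102). Got2 was called at -0.20, with no call without CTRL replicate 1, 2 or 4 or AAKO replicate 1, 2 or 6 (adjusted p = 0.0505 to 0.0633). Tdo2 was called at 0.37, with no call without CTRL replicate 1, 3, 4 or 5 or AAKO replicate 1, 2 or 4 (adjusted p = 0.0533 to 0.115). Haao and Aldh4a1 were not called, at -0.11 (interval -0.29 to 0.07) and 0.01 (interval -0.13 to 0.16). Csad differed by -0.62, with an interval from -1.22 to -0.01, and was not called (adjusted p = 0.132).

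In fed mice limma called 0 of the 42 enzymes, beside 0.0747% of all genes (0.0373% higher, 0.0373% lower), and 7 had an unadjusted p under 0.05, beside 6.79% of all genes. Of all calls in fed mice, 66.7% were higher with the authors' table, against 50% here. Those 7 were Sds, Gpt, Bckdhb, Ftcd, Prodh2, Oat and Pccb, and all had lower values in AAKO. The median of the 42 was -0.09, beside 0.00 for all genes. Pccb, a subunit of propionyl-CoA carboxylase, was the nearest to a call and the only enzyme of the 42 whose fed groups did not overlap, beside 0.668% of all genes. It ran from 0.14 to 0.43 in fed CTRL and from -0.13 to 0.10 in fed AAKO livers, a difference of -0.33 ± 0.07 (adjusted p = 0.0835). Without CTRL fed replicate 4 it was called, at -0.36 (adjusted p = 0.0429). Sds ran from 4.09 to 4.96 (median 4.51) in fed CTRL and from 3.67 to 4.61 (median 3.9) in fed AAKO livers. Its fed difference was -0.48, with an interval from -0.91 to -0.05. Got1 ran from 5.73 to 6.23 (median 5.92) and from 5.07 to 6.08 (median 5.71), with a difference of -0.29 (interval -0.67 to 0.10). Oat ran from 6.80 to 7.33 (median 7.15) and from 6.24 to 7.05 (median 6.69), with a difference of -0.40 (interval -0.66 to -0.15). The fed groups overlapped for all 3.

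Fasting of CTRL mice was set beside fed CTRL mice to see how the enzymes respond when adipose lipolysis is intact. Sdsl, Aass, Got1, Cdo1, Gldc, Hal and Gpt2 rose, and Haao, Aldh4a1, Prodh, Ivd and Mccc1 fell. Of the 42, 27 were called, 13 higher and 14 lower in fasted mice, beside 43.2% of all genes (20.8% higher, 22.4% lower). The median of the 42 was 0.01, beside -0.03 for all genes. Without CTRL fasted replicate 2 the count was again 27, with 14 higher and 13 lower, beside 40.9% of all genes.

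Sdsl had the highest response, since fed CTRL livers ran from 2.79 to 3.20 (median 2.91), far below the fasted CTRL livers. The difference was 1.90 ± 0.14 (3.74-fold, adjusted p = 1.42e-12). Sds, its neighbour, was not called, at 0.19 (interval -0.24 to 0.63). Aass ran from 6.39 to 6.71 (median 6.55) in fed CTRL livers and rose by 1.54 ± 0.17 (2.91-fold, adjusted p = 1.01e-08). Got1 rose by 1.52 ± 0.19 (2.87-fold, adjusted p = 7.47e-08). Cdo1, which commits cysteine to taurine or sulfate, rose by 1.09 ± 0.11 (2.13-fold). Gldc, in fed CTRL livers from 4.27 to 4.63 (median 4.53), rose by 0.87 ± 0.14, and its second probe gave 0.42. Fed and fasted CTRL groups did not overlap for any of these 5 risers.

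Haao ran from 6.40 to 6.81 (median 6.69) in fed CTRL livers and fell by 0.96 ± 0.09 (1.95-fold, adjusted p = 2.43e-10), whereas its second probe gave 0.14. Aldh4a1 ran from 6.55 to 6.88 (median 6.69) in fed CTRL livers and fell by 0.81 ± 0.07 (1.76-fold, adjusted p = 1.14e-10). Both fed groups lay wholly above the fasted CTRL arrays. All 3 proline and hydroxyproline enzymes fell, Prodh by 0.58 and Prodh2 by 0.51. Oat rose by 0.50 ± 0.13 (adjusted p = 1.36e-03), with no overlap. Tat ran from 7.17 to 7.62 (median 7.56) in fed CTRL livers and was called at 0.33 (adjusted p = 0.0407). That call was lost without CTRL fed replicate 4, 5 or 6 or CTRL fasted replicate 1, 2 or 5, and without CTRL fasted replicate 2 the difference was 0.20 (adjusted p = 0.182). Csad ran from 2.74 to 4.96 (median 3.71) in fed CTRL livers and was called at 0.87. Its call was lost without CTRL fed replicate 2 or 6 (adjusted p = 0.0538 to 0.0650).

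In AAKO mice the same comparison called 34 of the 42, 16 higher and 18 lower, beside 63.3% of all genes (27.9% higher, 35.4% lower), with a median of -0.01 beside -0.08. Got1 had the highest response. It ran from 5.07 to 6.08 (median 5.71) in fed AAKO livers and rose by 3.69 ± 0.19, a 12.9-fold higher level (adjusted p = 1.33e-16). Sdsl ran from 2.81 to 3.09 (median 3.01) in fed AAKO livers and rose by 2.91 ± 0.14 (7.50-fold). Aass ran from 6.42 to 6.6 (median 6.50) in fed AAKO livers and rose by 2.72 ± 0.17 (6.6-fold). Sds rose by 2.64 ± 0.21 (6.23-fold). Gpt2 and Agxt rose by 1.91 ± 0.14 and 1.82 ± 0.11, Tdo2 by 1.5 ± 0.13 and Tat by 1.42 ± 0.13. For each of these 8 genes every fasted AAKO array was above every fed AAKO array. Amt ran from -0.05 to 0.22 (median 0.09) in fed AAKO livers and fell by 1.64 ± 0.14 (3.12-fold), and Haao fell by 1.40 ± 0.09, whereas its second probe gave 0.34. Csad, in fed AAKO livers from 3.88 to 5.28 (median 4.14), fell by 1.40 ± 0.30. Cdo1 rose by 1.13 ± 0.11.

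**Figure D4:**
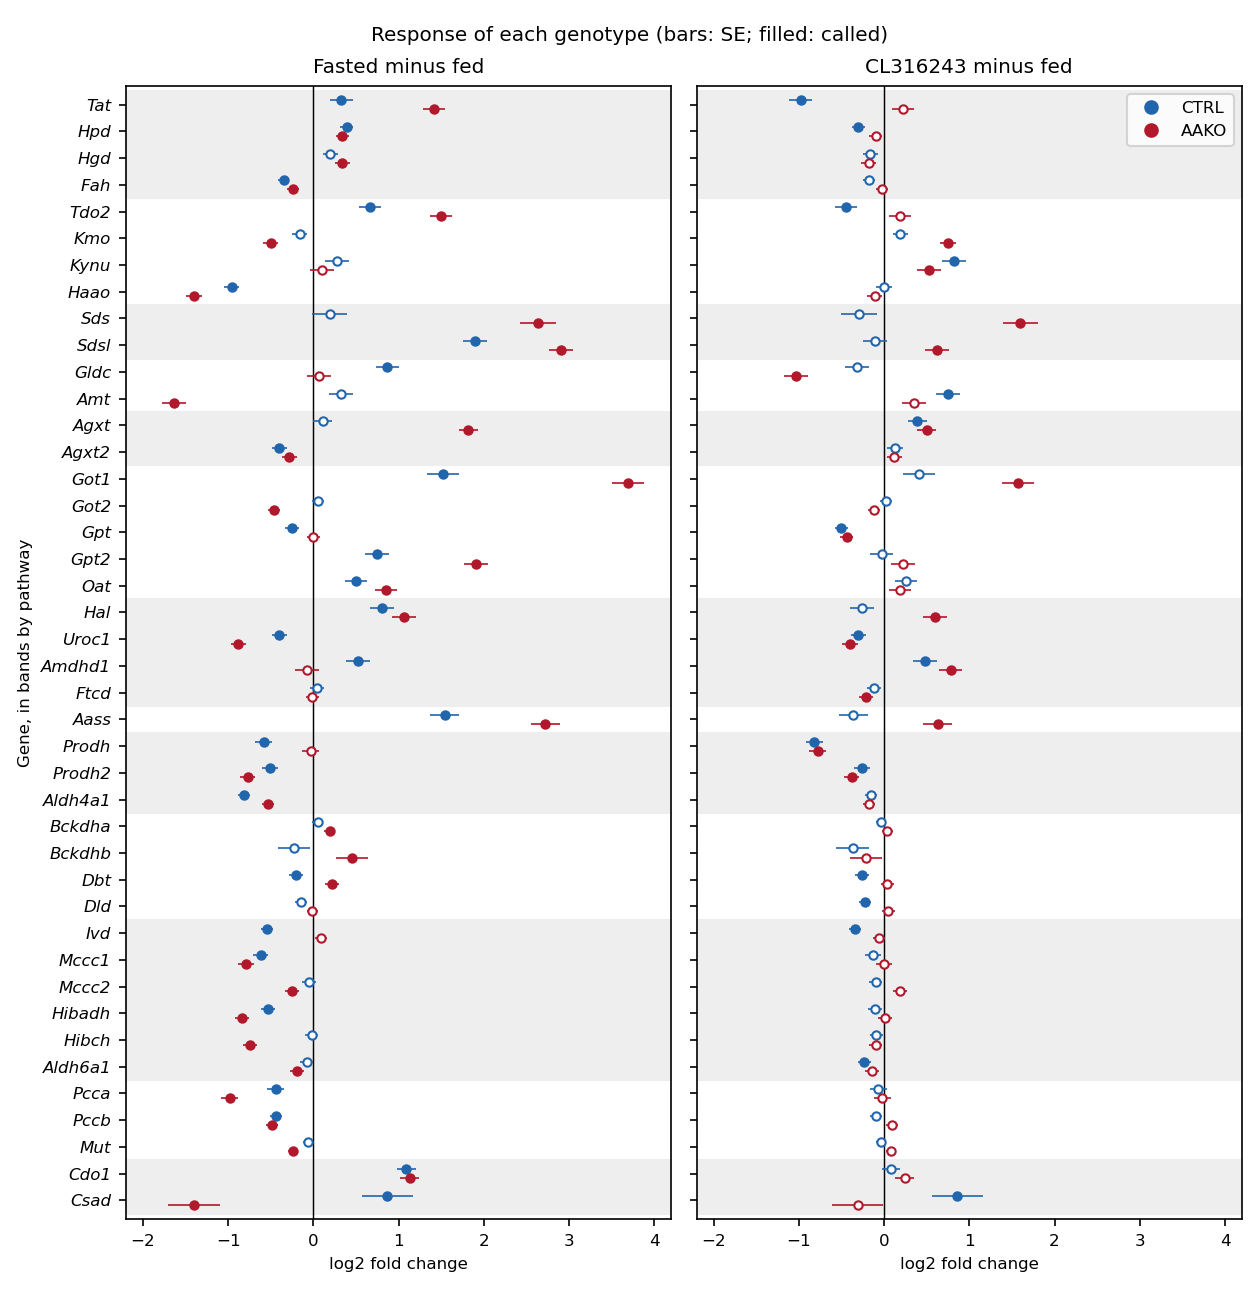
Points are the log2 fold changes (x axis) of fasted (left) and CL316243 (right) against fed livers in CTRL (blue) and AAKO (red) mice, with standard errors, for the 42 enzymes in bands by pathway. Filled points were called; Got1 rose by 1.52 in fasted CTRL and by 3.69 in fasted AAKO livers, and Csad lies on opposite sides of 0.

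Whether the genotypes responded differently to fasting was tested as the interaction, which cancels any shift between experiments common to both genotypes. It was called for 24 of the 42, 13 with a higher and 11 with a lower value in AAKO, beside 33.7% of all genes (14.6% higher, 19.1% lower). The median was 0.07, beside -0.05. Without CTRL fasted replicate 2 it was again 24, with 13 higher and 11 lower, beside 38.1% of all genes. Sds had an interaction of 2.45 ± 0.30 (adjusted p = 2.25e-07) and Got1 one of 2.17 ± 0.27 (adjusted p = 2.20e-07). Agxt followed at 1.71 ± 0.16, Aass at 1.18 ± 0.24, Gpt2 at 1.16 ± 0.20, Tat at 1.09 ± 0.19 and Sdsl at 1.00 ± 0.19. The negative interactions were led by Csad, at -2.27 ± 0.42 (adjusted p = 7.65e-05), and Amt, at -1.96 ± 0.20 (adjusted p = 1.14e-08). Hibch, Pcca, Amdhd1 and Got2 had interactions of -0.72, -0.54, -0.59 and -0.52. Gldc had one of -0.80 with the probe used, which turned to 0.16 (adjusted p = 0.763) with the mean over its probes. Ivd and Prodh, which fell in fasted CTRL livers, had interactions of 0.63 and 0.55.

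CL316243 was set beside feeding in the same way. In CTRL mice 16 of the 42 were called, 5 higher and 11 lower, beside 23.1% of all genes (10.5% higher, 12.6% lower), with a median of -0.12 beside -0.02. Quantile normalization gave 5 higher and 7 lower, beside 22.8% of all genes. Tat had the lowest difference, -0.98 ± 0.13 (1.97-fold lower, adjusted p = 2.53e-06), with no overlap of the groups. Prodh fell by 0.82 ± 0.10 and Gpt by 0.50 ± 0.08. Amt ran from -0.11 to 0.29 (median 0.08) in fed CTRL and from 0.60 to 0.98 (median 0.84) in CL316243 CTRL livers, and rose by 0.75 ± 0.14. Kynu rose by 0.82 ± 0.14 with the probe used, and its other probes gave 0.33 and -0.31. Gldc was not called at -0.32, whereas its second probe gave -2.66.

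In AAKO mice 15 of the 42 were called, 9 higher and 6 lower, beside 31.3% of all genes (15.8% higher, 15.5% lower), with a median of 0.04 beside 0.00. Of all calls 40.4% were higher with the authors' table, against 50.6% here. Sds and Got1 rose by 1.60 ± 0.21 (3.04-fold) and 1.57 ± 0.19 (2.98-fold). Kmo rose by 0.75, Aass by 0.63, Sdsl by 0.62 and Hal by 0.60. Gldc ran from 4.00 to 4.74 (median 4.48) in fed AAKO livers and fell by 1.03 ± 0.14 (2.04-fold), and Prodh fell by 0.78. Tat was not called, at 0.22 (interval -0.05 to 0.49). The interaction of genotype with CL316243 was called for 9 of the 42, 8 higher and 1 lower, beside 10.9% of all genes (6.33% higher, 4.56% lower), with a median of 0.12 beside 0.02. The 9 were Sds (1.89), Tat (1.20), Got1 (1.17), Aass (1.00), Hal (0.86), Sdsl (0.74), Tdo2 (0.64), Kmo (0.55) and Gldc (-0.71). The second Gldc probe gave 0.36, and with the mean over probes 9 enzymes were higher and 0 lower, beside 10.2% of all genes. Of all calls 44.2% were higher with the authors' table, against 58.1% here. Within wash batch 1 and wash batch 2 alone, 2 and 1 of the 42 were called for this interaction, beside 1.89% and 2.01% of all genes.

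Fasting and CL316243 were also compared directly, within experiment 1. In CTRL mice 25 of the 42 were called, 12 higher and 13 lower in fasted livers, beside 36.8% of all genes (19.0% higher, 17.9% lower), and the median was 0.06 beside 0.00. The split was 16 higher and 10 lower with quantile normalization, beside 37.9% of all genes. Without CTRL fasted replicate 2 it was 12 higher and 10 lower, beside 33.9% of all genes. Sdsl was higher in fasted CTRL livers by 2.02 ± 0.14, Aass by 1.90 ± 0.17, Tat by 1.31 ± 0.13, Gldc by 1.19 ± 0.14 and Got1 by 1.11 ± 0.19. Haao and Aldh4a1 differed by -0.96 ± 0.09 and -0.66 ± 0.07, and both were called, whereas the second Haao probe gave 0.52.

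In AAKO mice 38 of the 42 were called, 19 higher and 19 lower, beside 59.9% of all genes (26.1% higher, 33.7% lower), and the median was 0.05 beside -0.08. The share of all calls that were higher was 43.7% here, 58.1% with the authors' table and 31.5% with normexp correction, which called 69.1% of all genes. Sdsl was higher in fasted AAKO livers by 2.29, Got1 by 2.12, Aass by 2.09, Gpt2 by 1.69 and Agxt by 1.32. Sds was higher by 1.04 ± 0.21 (adjusted p = 9.76e-05). Amt differed by -1.99 ± 0.14 (adjusted p = 2.33e-13), Kmo by -1.25 and Haao by -1.28, with 0.78 for the second Haao probe.

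The genotype differences under fasting and under CL316243 were compared by an interaction of their own, called for 19 of the 42, 6 higher and 13 lower, beside 32.1% of all genes (12.8% higher, 19.3% lower). Its median was -0.10, beside -0.08. The authors' value table gave 7 higher and 8 lower, beside 30.7% of all genes. Of all calls 54.9% were higher with that table, against 40.0% here. Without CTRL fasted replicate 2, 20 of the 42 were called, beside 36.3% of all genes. The genotype difference was higher under fasting for Agxt (1.60 ± 0.16), Got1 (1.01 ± 0.27) and Gpt2 (0.90 ± 0.20). It was lower under fasting for Amt (-1.56 ± 0.20), Kmo and Amdhd1 (-0.89 each) and Hibch (-0.71). Tat, Sdsl and Aass had values of -0.11, 0.27 and 0.19 and were not called, so their genotype differences under fasting and CL316243 were not shown to differ. Sds, at 0.56, was not called either.

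Other genes of amino acid handling, from lists drawn up with earlier results of these data known, were read from the same fit, in which 49.3% of all genes were called in fasted AAKO against CTRL livers (21.4% higher, 27.9% lower). In fasted mice 9 of 10 urea cycle and ammonia genes were called, 7 higher and 2 lower in AAKO, with a median of 0.37. Nags, which makes the activator of the cycle's first step, rose by 1.1, Cps1, that first step, by 0.51, and Otc fell by 0.64. Of 33 further amino acid enzymes 25 were called, 5 higher and 20 lower, with a median of -0.28. Acmsd, which diverts a kynurenine intermediate from NAD synthesis, rose by 2.28, and Ido2 fell by 2.82. Amino acid transporters were called in 9 of 12, 8 higher and 1 lower, from Slc16a10, a carrier of aromatic amino acids, at 1.72, to Slc6a9, a glycine carrier, at -1.92. All 12 transcriptional regulators were called, 9 higher and 3 lower, with Klf15 at 1.36 and Creb3l3 at -0.80. Bckdk, the kinase that inactivates the branched-chain dehydrogenase, fell by 0.87 ± 0.12, and its phosphatase Ppm1k was not called at -0.01. Without CTRL fasted replicate 2 the urea cycle and ammonia count was 8 of 10, 7 higher and 1 lower, beside 51.7% of all genes. The counts of the further enzymes, transporters and regulators were then as given.

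Of the genes for serine synthesis and the response to amino acid shortage 7 of 11 were called in fasted mice, 5 higher and 2 lower. Chac1, which degrades glutathione, rose by 3.81 ± 0.50 and Atf5 fell by 1.60. Asns, which makes asparagine, was called at 0.92, and its call was lost without CTRL fasted replicate 1, 3, 4 or 6 or AAKO fasted replicate 1, 4, 5 or 6 (adjusted p = 0.0533 to 0.127). Zonation markers were called in 4 of 10 pericentral genes, all lower, and in 7 of 10 periportal genes, 5 higher and 2 lower, beside the same 49.3% of all genes. Without CTRL fasted replicate 2 the zonation counts were as given, and 8 of the 11 were called, 5 higher and 3 lower. Tbx3 and Cyp2e1, both pericentral, fell by 2.11 and 0.20, and Hsd17b13, from the periportal list that also holds Sds, fell by 0.51. Glul, the pericentral glutamine synthetase, was not called at 0.16. After CL316243, where 24.7% of all genes were called, 6 of 10 urea cycle and ammonia genes were called, all higher, with Cps1 at 0.70 and Ass1 at 0.29. Transporters were called in 6 of 12, with Slc38a2 at 1.59 and Slc6a9 at -1.03, and regulators in 7 of 12, with Atf4 at 0.82 and Ppara at -1.22. Of the 33 further enzymes 8 were called, of the 11 genes for serine synthesis and amino acid shortage 5, of the pericentral genes 2 of 10 and of the periportal genes 5 of 10. The 2 pericentral calls were Oat, itself 1 of the 42, and a gene whose call was lost without CTRL CL316243 replicate 4 or AAKO CL316243 replicate 5. Acmsd rose by 1.25 and Hsd17b13 fell by 0.57. Klf15 and Bckdk were not called after CL316243, at 0.22 and -0.05.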

How the data were processed

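RNA of 36 liver samples was hybridised to 36 one-colour Agilent arrays, from 200 ng of RNA each per the labels' protocols. Per the file headers, the deposited scanner files hold intensity values, gProcessedSignal, already background-corrected by Agilent Feature Extraction, and flags for outlier, saturated and well-above-background spots, deposited as other values. The submitters' processing notes name Agilent Feature Extraction 10.10.1.1 and limma. The authors also deposited a log2 value table of 36898 probes, and its scaling is not given in the sources used here. Probe positions are those of the files, in mm9.

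Outlier spots (2701, 0.127%) were left out, spots of 1 probe were averaged, and log2 intensity was centred on each array's 75th percentile. A gene was tested where 5 or more of the 6 arrays of some group read its probe well above background. One limma 3.58.1 fit (R 4.3.3) of 6 group means with wash batch as covariate gave 12 contrasts, two-sided. The fit was also run on simulated data in which few genes changed. Far more genes were called in fasted mice here, so that run does not show how the fit performs on these data. The number of arrays limits the precision. The members and lists were chosen with earlier results of these data known. All 42 genes could be named. Every array's range was given for the 2 highest and 2 lowest called genes of AAKO against CTRL in fasted mice, of AAKO against CTRL after CL316243, and of fasted against fed CTRL. Of the other lists, the highest and lowest called gene could be named, leaving out calls lost without 1 array, with Bckdk, Ppm1k, Cps1, Glul, Klf15 and Asns, and 1 further gene that is not reported here. Alternatives were the dim-probe filter, normexp with offset 50, quantile normalization, the authors' table, the mean over probes, the groups fitted, slide, wash batch, a replicate block and leaving out each array.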

Additional observations from a re-analysis of the deposited data

Results flagged for a closer look

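Tat in AAKO fed replicate 1 lay at 7.33, below the other 5 fed AAKO arrays at 7.53 to 7.64. The gap was a share of 0.645 of the group's range, past Dixon's limit for 6 values. This was 1 of 66 groups of 6 checked for the 11 genes shown, and chance alone gives about 1 group in 20.

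The genotype difference itself differed between fasted and fed mice for 10 of the 11 genes shown, by the limma interaction, beside 24 of the 42 enzymes and 33.7% of all genes. The 11 were chosen in part for high or low genotype differences in fasted mice, so this count follows in part from the choice. The interaction was 2.45 for Sds, 2.17 for Got1, 1.18 for Aass, 1.09 for Tat and 1.00 for Sdsl. It was 0.28 for Aldh4a1, -0.43 for Haao, -0.80 for Gldc, -1.96 for Amt and -2.27 for Csad. The second probes of Haao and Gldc gave 0.20 and 1.12, so for these genes the sign depends on the probe. The Aldh4a1 call (adjusted p = 0.0323) was lost without CTRL fed replicate 4, CTRL fasted replicate 4 or AAKO fasted replicate 4 or 5, with adjusted p from 0.0668 to 0.0694.

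Between CL316243 and fed mice the genotype difference differed for Sds by 1.89, Tat by 1.20, Got1 by 1.17, Aass by 1.00, Sdsl by 0.74 and Gldc by -0.71. Between fasted and CL316243 mice it differed for Got1 by 1.01, Aldh4a1 by 0.31, Haao by -0.32, Csad by -1.11 and Amt by -1.56. The second Haao probe gave 0.26 there. In that comparison the call of Haao (adjusted p = 0.0482) was lost on leaving out any 1 of 19 arrays, and that of Csad (adjusted p = 0.0417) on leaving out any 1 of 13.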

How the results depend on the processing

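The 12 comparisons gave 253 calls of a single enzyme, and 121 kept their direction and their call in every setting tried. For fasted AAKO against CTRL these were 17 of 31, among them Aass, Agxt, Amt, Csad, Got1, Gpt2, Sds, Sdsl and Tat, and after CL316243 they were 4 of 15, Aass, Sds, Sdsl and Tat. Reversals came with the mean over the tested probes of a gene alone. They were Gldc in the fasting interaction (0.16), Hgd in fasted AAKO against CTRL (-0.32), Ivd in the interaction of fasting against CL316243 (-0.07), Kynu in CL316243 against fed AAKO (0.00) and in fasted against CL316243 CTRL (0.28). Mccc1 turned to 0.61 in fasted AAKO against CTRL, 0.53 in fasted against CL316243 AAKO and 0.46 in fasted against fed AAKO, and Mccc2 to 0.15 and 0.65 in the last 2. These genes have probes of opposite sign. With the authors' table the median of all genes in fasted against CL316243 AAKO livers moved from -0.08 to 0.05. There too 38 of the 42 were called, 21 higher and 17 lower, beside 57.9% of all genes.

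With 1 array left out, the count of enzymes called ranged from 28 to 31 for fasted AAKO against CTRL, 12 to 16 for the same after CL316243 and 0 to 1 in fed mice. It ranged from 24 to 27 and 32 to 34 for fasted against fed in CTRL and AAKO, 11 to 17 and 14 to 16 for CL316243 against fed, and 22 to 28 and 36 to 39 for fasted against CL316243. It ranged from 21 to 25, 9 to 12 and 16 to 20 for the interactions with fasting, with CL316243, and of fasting against CL316243. Within wash batch 2 alone, the count fell to 4 for AAKO against CTRL after CL316243, beside 6.48% of all genes. It fell to 6 and 3 for CL316243 against fed in AAKO and CTRL, beside 9.4% and 6.58%. For those 3 interactions it fell to 11, 1 and 5, beside 12.9%, 2.01% and 12.7%. Within wash batch 1 it was 8 for CL316243 against fed in CTRL, beside 8.72% of all genes. For the interactions with CL316243 and of fasting against CL316243 it was 2 and 12, beside 1.89% and 20%. These shares of all genes were also lower than with all arrays.

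With the replicate numbers of the titles as a replicate block, 247 of the 253 calls held. Fasted AAKO against CTRL then gave 31 of 42, beside 48.9% of all genes. Deviations of same-numbered arrays from their group means had a correlation over 0.1 in 16 of 90 pairs (median 0.00321, range -0.305 to 0.361). The numbers were not taken as a pairing. Between fed CTRL and fed AAKO arrays all these correlations were positive, from 0.00481 to 0.361. Differently numbered arrays were not compared, so a shared deviation in fed mice was not tested.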
